A study of Mus musculus with 6 samples.

Results

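The small ribosomal subunit protein genes were followed on 6 Agilent mouse arrays, over all probes whose RefSeq accession names a gene with the symbol Rps and a number, or Rpsa. Kinases of the Rps6k family, Rps19bp1 and genes marked as pseudogenes by -ps were left out. The rule gave 34 genes with 60 probes, of 22911 named genes and 56605 probes on the array. The cells were LysoDCs, lysozyme-expressing mononuclear phagocytes from Peyer's patches of the mouse (lymphoid follicles in the wall of the small intestine), sorted as carrying the C5a receptor. One group of 3 samples received no C5a (0 nM, "untreated") and the other group of 3 received recombinant C5a at 100 nM for 3 h. Before the sort, dead cells were removed and CD11c+ cells enriched, and all sorted cells were cultured with CSF-1 and a factor that the labels spell CFS-2. Strain, age, the number of animals and the culture time of the untreated cells are not given in the sources used here. Nothing in the labels says that replicates came from separate animals, so the spread that p-values rest on here is that between these samples and may be technical. The series asks whether C5a, a fragment of complement component C5 that binds a G protein-coupled receptor, triggers signalling in these cells.

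The small subunit of the ribosome binds the mRNA, scans to the start codon and holds the decoding centre, where codon and tRNA anticodon are matched. Its proteins wrap around a ribosomal RNA and are made in near-equal amounts, so their genes are usually studied as a group. Many ribosomal protein mRNAs start with a run of pyrimidines just after the cap, through which growth signals passing by mTOR and Larp1 set their translation and stability. An array measures the amount of such an mRNA and not how well it is translated. In a bulk sample, fewer cells of a type and less RNA per cell cannot be told apart.

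Start sites of 10 members are shown because a pyrimidine run there is the feature through which such control is known to act. Each window holds 15 bases before and 15 bases from the RefSeq start on, 5′ to 3′ on the gene's strand, in assembly GRCm38.p6. Capitals mark a run of a C followed by at least 4 pyrimidines that begins within 5 bases of the start, searched on the gene's strand only.
Rps21 (chr2:180257364-180257393, plus strand): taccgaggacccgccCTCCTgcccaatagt
Rps27 (chr3:90213634-90213663, minus strand): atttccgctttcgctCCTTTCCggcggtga
Rps15a (chr7:118116133-118116162, minus strand): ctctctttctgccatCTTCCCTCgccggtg
Rps27l (chr9:66946071-66946100, plus strand): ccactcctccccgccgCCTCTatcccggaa
Rps10 (chr17:27635230-27635259, minus strand): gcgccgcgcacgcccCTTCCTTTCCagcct
Rps18 (chr17:33955651-33955680, minus strand): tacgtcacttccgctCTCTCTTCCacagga
Rps28 (chr17:33824548-33824577, minus strand): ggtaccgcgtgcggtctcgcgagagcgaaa
Rps3a1 (chr3:86142654-86142683, minus strand): ttaaagccggaagggcgaaagagcaagggt
Rps25 (chr9:44407699-44407728, plus strand): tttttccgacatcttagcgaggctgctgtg
Rps12 (chr10:23787195-23787224, minus strand): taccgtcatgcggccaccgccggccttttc
The first 6 hold the run and the other 4 do not. Rps21 and Rps27l each have a second listed start without a run (chr2:180257434-180257463 and chr9:66946398-66946427). Of the 34 genes, 25 had an entry in the RefSeq promoter table, and 13 of these (52.0%) had a run at 1 of their listed starts or more, against 21.2% of all 27025 genes in the table. The other 12 had none. A match is a description of the letters, and a window without a run says only that these letters are not in it.

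Most members were detected on every array, while the arrays as a whole were dim. Signals are log2 values, scaled by subtracting the 75th percentile that an array showed over the probes well above background on every array, and differences are C5a minus untreated. Between 2728 and 6959 probes per array were well above background, no spot was saturated, and the signal at the 75th percentile before scaling ran from 109 on untreated 3 to 459 on untreated 2. Well above background on all 6 arrays were 52 of the 60 member probes (86.7%), against 4.19% of all probes. Of the phagocyte markers, 13 of 16 were detected on at least 3 arrays, 10 of them on all 6 (among them Lyz1, Lyz2, Itgax, Csf1r and Sirpa), and Cd4, Cx3cr1 and Mertk on none. C5ar1, the gene of the C5a receptor, was dim. Its tested probe was detected on 1 untreated and 2 C5a arrays, with group means of -3.61 and -3.89. Markers of T cells, epithelium, neutrophils, stroma and red cells were detected on no array, nor were Cd79a, Ms4a1, Fcer2a and Pax5 of the B cell list. Of the 6 B cell markers 2 were detected on some array, of which Cd79b, a part of the B cell receptor, on 3, and of the 3 plasma cell markers 2 were detected on some array and 0 on at least 3. The summed linear level of the phagocyte markers, relative to the same percentile, was 74.0 to 89.7 in the untreated samples and 59.5 to 74.3 with C5a. That sum rests mostly on H2-Eb1, H2-Ab1 and Cd74, the brightest of them. Of the 16 tested probes of these markers 5 differed above 0, among them Itgax (0.46) and Csf1r (0.41), 11 below, and 0 were called. The part of marker levels in the results below was not tested.

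Of the 60 member probes, 54 of 32 genes were well above background on at least 3 arrays and were tested. The array carries 23 members as 10 spots each and the other 37 as 1 spot, and 31 of the latter were among those tested. Rps23rg1, a retrogene copy of Rps23, and Rps4l, annotated as a transcribed pseudogene, had no tested probe. Their 3 probes were well above background on 0 arrays, as was 1 further probe each of Rps15a and Rps27a. A further probe of Rps24 reached that mark on 1 array. The other probes of these 3 genes were tested, so the undetected ones do not speak for their genes. Rps4x, the X-linked gene that is expressed in both sexes, had 1 tested probe.

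C5a was followed by no called change in any small subunit gene. By limma, 0 of 54 member probes passed an adjusted p of 0.05, and of all 4958 tested probes 0 did (0.0%), with 0.9997 as the lowest adjusted p. Before adjustment, 0 members and 118 of all probes had a p under 0.05. Of the member differences, 25 were above 0 and 29 below on this scale. Scaling to the 75th percentile over all probes, which shifted the median of all tested probes by 0.36, gave 51 above and 3 below. The median member difference was -0.01 against 0.03 for all tested probes. Their gap of -0.04 cannot move between these scalings, which subtract 1 value per array, and ran from -0.11 without C5a 3 to 0.15 under normexp background correction. The median size of a difference was 0.11 for members and 0.22 for all, and 50 of 54 members (92.6%) lay within 0.5 of 0, against 80.6% of all probes. The median standard error was 0.27 for members and 0.37 for all. Members include a larger share of probes with 10 spots (23 of 54, against 265 of 4958). Among 10-spot probes alone the median size of a difference was 0.10 for members and 0.09 for all, 100% and 99.6% lay within 0.5 of 0, and the median SE was 0.27 for both. Among 1-spot probes the median size was 0.18 for members and 0.23 for all, 87.1% and 79.5% lay within 0.5 of 0, and the median SE was 0.30 and 0.38. Well above background on all 6 arrays were 29 of these 31 members, against 2108 of all 4693 1-spot probes. The members were thus set against probes that were less often detected, and the part of this in the gaps was not tested. The groups did not overlap in 2 of 54 member probes (3.70%), 1 of Rps10 and 1 of Rps28, against 5.79% of all tested probes.

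**Figure D1:**
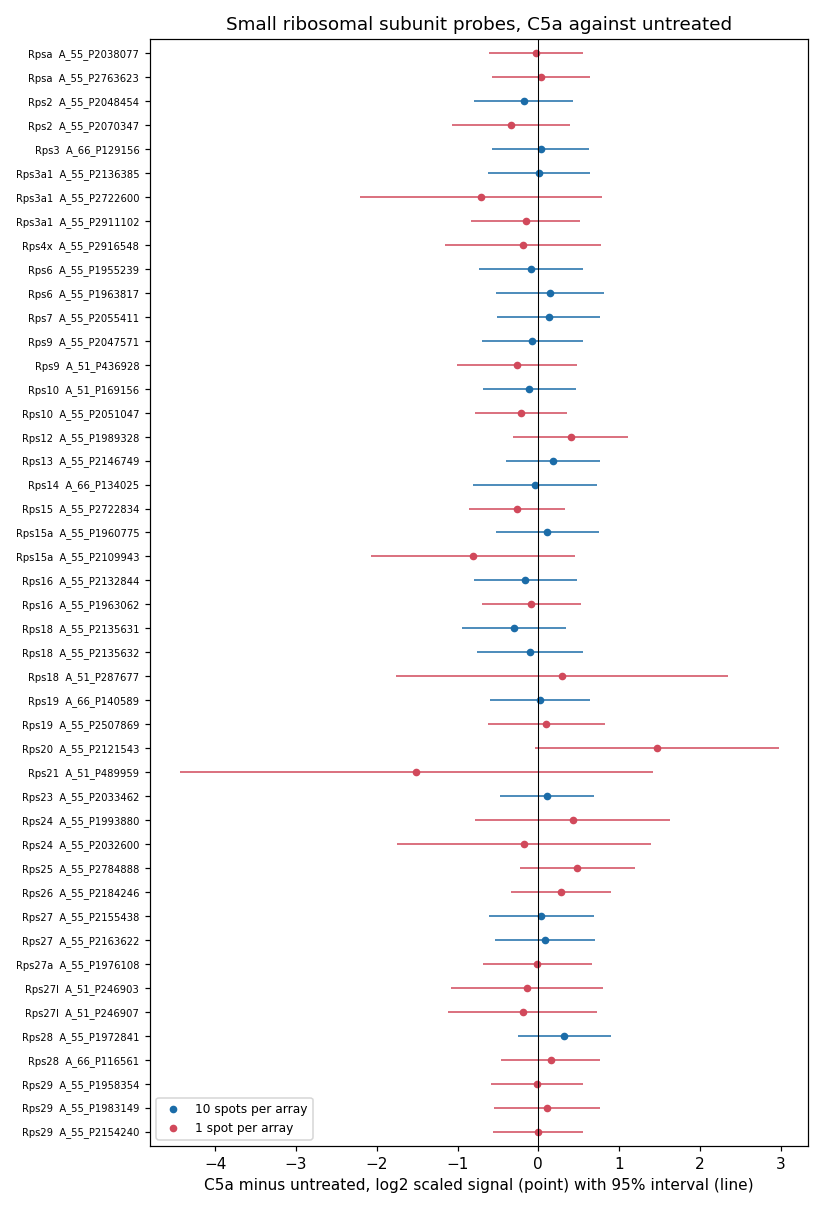
Difference between the C5a and untreated means of 46 of the 54 tested small subunit probes (points, log2 scaled signal, 3 samples per group) with its 95% interval from limma (lines), ordered by gene number, for probes with 10 spots (blue) and 1 spot (red) per array. All intervals shown hold 0, the 19 blue points lie between -0.30 and 0.32, and the red points run from -1.51 for Rps21 to 1.46 for Rps20.

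The 23 probes with 10 spots came from 19 genes. Their differences ran from -0.30 to 0.32 with a median of 0.03, and every 95% interval lay between -0.94 and 0.90, that is between 1.92-fold lower and 1.86-fold higher. The 31 probes with 1 spot ran from -1.51 to 1.46.

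The mRNAs of proteins at the mRNA path were measured by several of the well replicated probes. Rps3, at the mRNA entry, read 0.52, 0.55 and 0.42 in the untreated samples and 0.77, 0.34 and 0.46 with C5a, a difference of 0.03 (SE 0.26). Rps23, which lines the decoding centre, read 1.36, 1.38 and 1.20 untreated and 1.55, 1.26 and 1.47 with C5a, a difference of 0.11 (SE 0.25). In both genes 1 C5a array or more lay inside the untreated range or below it, so the groups overlapped. Rps28, near the mRNA exit, read 0.97, 1.02 and 0.90 untreated (mean 0.96 ± 0.06, SD, n = 3) and 1.25, 1.18 and 1.43 with C5a (1.28 ± 0.13). Every C5a array of this 10-spot probe was above every untreated one, by a mean of 0.32 (SE 0.24, unadjusted p = 0.224, adjusted p = 0.9997 by limma). Between its spots the SD was 0.29, 0.34 and 1.20 on untreated 1 to 3 and 0.46, 0.08 and 0.07 on C5a 1 to 3. The value of 0.90 on untreated 3 is thus the least certain of the 6. The other Rps28 probe, with 1 spot, read 0.92, 1.25 and 1.22 against 1.15, 1.23 and 1.47, and there the groups overlapped (difference 0.15, SE 0.26). Rps26, measured by a 1-spot probe, also lies at the exit and contacts the mRNA upstream of the start codon. It read 0.50, 0.97 and 0.87 untreated and 0.96, 1.05 and 1.18 with C5a. The lowest C5a array lay just under the highest untreated one, and the difference was 0.28 (SE 0.26). Rps2, at the mRNA entry, had differences of -0.18 (SE 0.26) for its 10-spot probe and -0.34 (SE 0.31) for its 1-spot probe, the latter from -1.35, -1.32 and -1.22 untreated and -1.13, -2.02 and -1.75 with C5a. C5a 1 was the highest of these 6 values and the other C5a arrays the lowest.

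Other members lie in the head of the subunit. Rps25, needed for initiation at some viral internal ribosome entry sites, read 0.69, 0.24 and 1.05 untreated and 0.97, 1.27 and 1.19 with C5a, a difference of 0.48 (SE 0.30, unadjusted p = 0.151 by limma). Rps12 read 2.52, 2.16 and 1.78 untreated and 2.84, 2.41 and 2.42 with C5a, a difference of 0.40 (SE 0.30). Both were measured by a 1-spot probe, and in both 1 untreated array lay within the C5a range. Rps10, which like Rps20 carries ubiquitin added by Zfp598 when ribosomes collide, had 2 probes below 0. The 1-spot probe read 1.69, 1.51 and 1.50 untreated and 1.27, 1.43 and 1.36 with C5a, without overlap (difference -0.21, SE 0.24, unadjusted p = 0.413 by limma). Its 10-spot probe overlapped, with -0.82, -0.91 and -0.78 against -0.96, -1.07 and -0.81 (difference -0.11, SE 0.24).

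Rps19 and Rps7, which are among the members tied to Diamond-Blackfan anaemia, the red cell disorder of ribosomal protein mutations, differed by 0.02 and 0.13 on their 10-spot probes. The members tied to this disease were not compared as a set. Rps6, the substrate of the S6 kinases, had -0.09 and 0.14 on its 2 probes. Rps14, the gene in the deletion of the 5q- syndrome, read 1.00, 0.40 and 0.58 untreated and 1.08, 0.27 and 0.51 with C5a, a difference of -0.04 (SE 0.33). Its 6 values fall by replicate number and not by group, with the arrays numbered 1 at the top of both groups. Among the other genes with a single tested probe, Rps13 differed by 0.18 (SE 0.25), Rps15 by -0.26 (SE 0.25) and Rps27a, whose protein is made as a fusion with ubiquitin, by -0.01 (SE 0.29). Rpsa, which also serves at the cell surface as a laminin receptor, had differences of 0.03 (SE 0.26) and -0.03 (SE 0.25) for its 2 probes.

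The 4 differences largest in size among members belonged to probes with 1 spot. Rps20, a head protein, read 0.19, 0.23 and -0.57 untreated (mean -0.05 ± 0.45, SD, n = 3) and -0.03, 1.77 and 2.51 with C5a (1.42 ± 1.30). C5a 2 and C5a 3 were above all untreated arrays and C5a 1 was among them. The difference was 1.46 (2.76-fold, SE 0.64, unadjusted p = 0.0558, adjusted p = 0.9997 by limma), and 0.92 without C5a 3. Without C5a 1 it was 2.18 (unadjusted p = 0.00176, adjusted p = 0.9994 by limma). Rps21, a late-joining protein that binds Rpsa, read 1.37, 1.37 and 1.39 untreated and 1.91, 1.04 and -3.35 with C5a. The difference of -1.51 (SE 1.24) came from C5a 3, and without it the value was 0.10. A 1-spot probe of Rps15a read -0.36, -0.55 and -0.22 untreated and -2.46, -0.52 and -0.57 with C5a. Its difference was -0.81 (SE 0.54), and -0.17 without C5a 1. A 1-spot probe of Rps3a1, from the platform of the subunit, read -1.92, -1.88 and -1.67 untreated and -4.05, -1.45 and -2.11 with C5a. Here again C5a 1 alone was low, and the difference went from -0.71 (SE 0.64) to 0.05 without it.

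**Figure D2:**
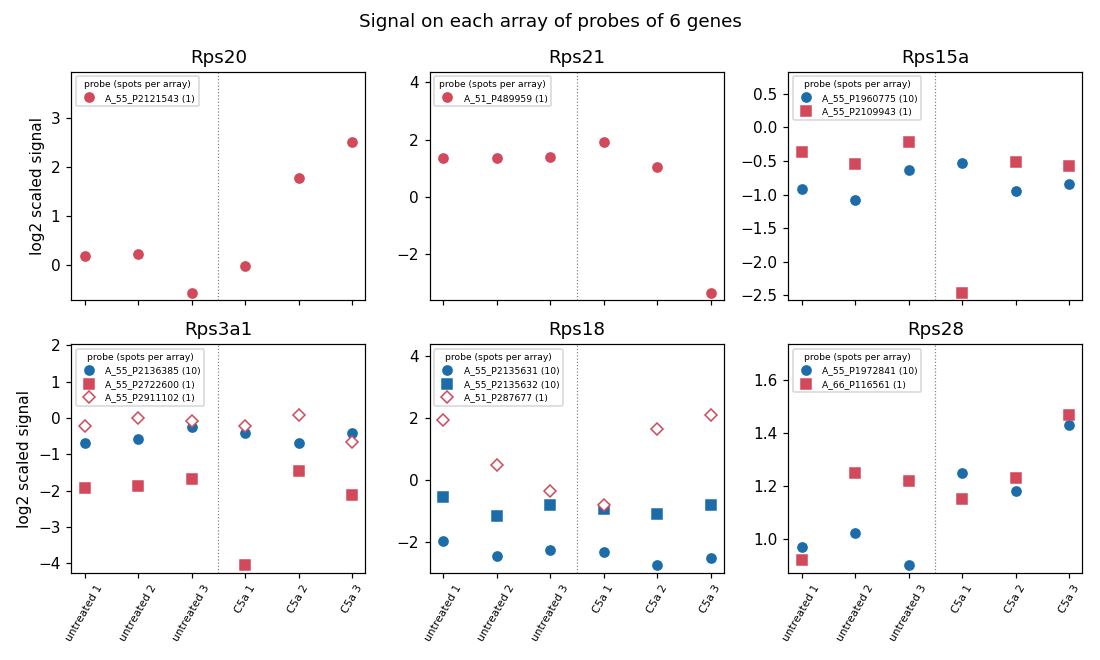
Log2 scaled signal (vertical axis, a range of its own in each panel) of the tested probes of 6 genes on the 3 untreated and 3 C5a arrays, left and right of the dotted line, for probes with 10 spots (blue) and 1 spot (red) per array. The 1-spot probes of Rps15a and Rps3a1 read -2.46 and -4.05 on C5a 1 while the 10-spot probes of these genes read -0.53 and -0.41 there, and Rps21 read -3.35 on C5a 3.

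Different probes of a gene were compared in the 18 genes that had 2 tested probes (14 genes) or 3 (4 genes). The gap between the highest and lowest difference of a gene had a median of 0.11 and was under 0.3 in 14 genes. The signs differed in 8 genes, among them Rps15a, Rps18, Rps24, Rps29, Rps3a1, Rps6 and Rpsa. Gaps of 0.06 to 0.07 were found, among others, in Rps16 (-0.16 and -0.09), Rps19 (0.02 and 0.10), Rps27l (-0.14 and -0.20) and Rpsa. Rps27 had 0.04 and 0.08, Rps9 had -0.07 and -0.26, and Rps29 ran from -0.02 to 0.11 over 3 probes. Each difference given for these 7 genes was smaller than its own standard error, which ran from 0.24 to 0.40.

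Gaps of 0.3 or more were found in 4 genes, each with a 1-spot probe at 1 end. In Rps15a the gap was 0.92, as the 10-spot probe read -0.92, -1.08 and -0.64 untreated and -0.53, -0.95 and -0.84 with C5a (difference 0.11, SE 0.27). C5a 1 was the highest of these 6 arrays on the 10-spot probe and the lowest on the 1-spot probe. In Rps3a1 the gap was 0.72, with 0.01 (SE 0.26) on the 10-spot probe and -0.16 (SE 0.29) on the other 1-spot probe. In Rps18, a head protein that contacts the large subunit, the 10-spot probes gave -0.11 (SE 0.28) and -0.30 (SE 0.27), the latter from -1.96, -2.43 and -2.25 untreated and -2.32, -2.73 and -2.49 with C5a. The 1-spot probe of Rps18 read 1.93, 0.49 and -0.33 untreated and -0.81, 1.66 and 2.11 with C5a, a wider range than either 10-spot probe. In Rps24 both tested probes had 1 spot: the first read 2.13, 2.03 and 0.90 untreated and 2.41, 0.05 and 2.06 with C5a (difference -0.18, SE 0.67), and the second, detected on 5 arrays, gave 0.42 (SE 0.51). Mammalian genomes hold many processed pseudogenes of these genes, and probe sequences were not used here, so which transcripts each probe can bind was not tested.

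Among the tested members, all 13 values that lay more than 1 log2 unit from their probe's mean over the 6 arrays belonged to 7 probes with 1 spot, those named above for Rps15a, Rps18, Rps20, Rps21, Rps24 and Rps3a1 (Rps24 with 2), and 0 to probes with 10 spots. The position of these spots was therefore set against their neighbours, the other tested spots within 10 rows and 10 columns. The array has 384 rows and 164 columns. Rps21 lies at row 27 and column 83, where 46 neighbours on C5a 3 had a median deviation of -3.30 from each probe's own median over the arrays. On that array 79 tested spots, in rows 2 to 56 and columns 74 to 97, lay in such a dim patch (neighbour median below -1), with a median deviation of -3.67. The other 5 arrays had 0 or 1 such spot each. The patch held member spots as well. A single spot of the 10-spot probe of Rps2 deviated by -4.82, carried Feature Extraction's outlier mark and was left out of the probe's average. The Rps21 spot deviated by -4.72 and carried no mark. With the neighbours' median subtracted from each spot, a step added after seeing the data, the Rps21 difference was -0.42 (SE 0.44).

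**Figure D3:**
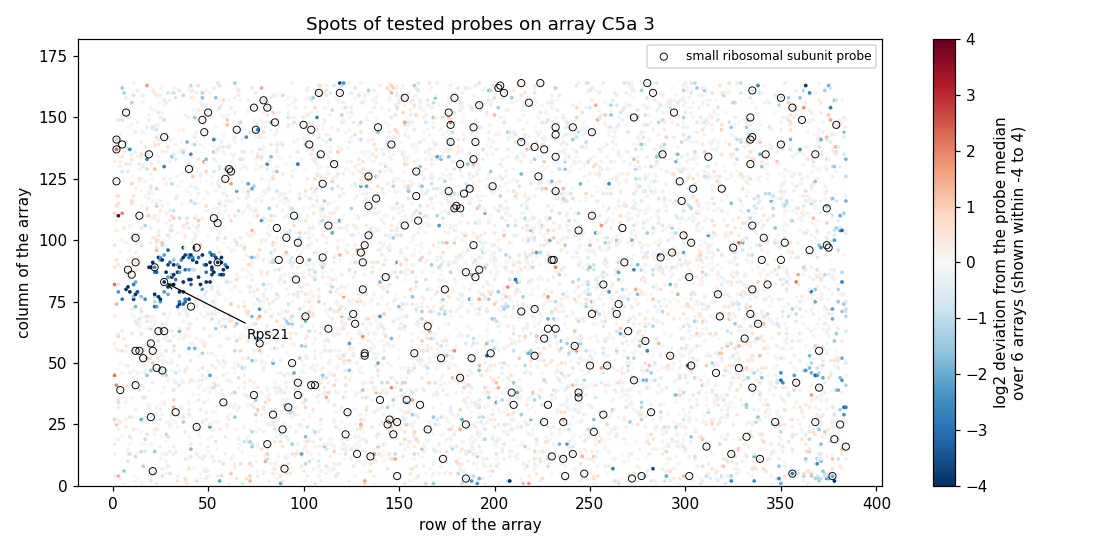
Spots of the 4958 tested probes on array C5a 3 by row and column of the array, coloured by their log2 deviation from the probe's median over the 6 arrays, with small subunit spots circled. The blue cluster in rows 2 to 56 and columns 74 to 97 is the dim patch of 79 spots, and Rps21 at row 27 and column 83 lies in it.

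Rps20 and the 1-spot probe of Rps18 lie at the edge of the array, both in row 2, at columns 137 and 141. The medians of 23 neighbours of Rps20 were -0.08, -0.28 and -0.64 on the untreated arrays and -0.30, 0.02 and 0.16 on C5a 1 to 3, so that C5a 2 and 3 were highest among the neighbours as in Rps20 itself. Over the 54 tested spots of rows 1 to 4 the median deviations were -0.26, -0.46 and -0.75 untreated and -0.98, 0.11 and 0.30 with C5a. All arrays were on 1 slide, and the untreated arrays and C5a 1 were in its first row and C5a 2 and 3 in its second, so the second row held C5a samples only, and C5a 1 alone separates treatment from row. Within the first row the Rps20 difference was 0.02 (1 C5a array against 3 untreated). With neighbours subtracted it was 1.17 (SE 0.52, unadjusted p = 0.0597 by limma). The neighbours include spots beyond rows 1 to 4, and on every array their median was smaller in size than that of rows 1 to 4. The subtraction therefore cannot decide how much of the Rps20 difference goes with position at the edge. For the low spots of Rps15a, Rps3a1 and Rps24 the neighbour medians were at most 0.19 in size on every array. Over all 31 tested 1-spot members, 29 had neighbour medians under 0.5 in size on every array.

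Probes with 10 spots spread less between arrays than those with 1. Over the 6 arrays the SD of the scaled signal had a median of 0.20 for the 23 members with 10 spots (at most 0.38) and of 0.29 for the 31 with 1 spot (0.03 to 1.97). All tested probes with 10 spots had a median SD of 0.19 (265 probes) and those with 1 spot of 0.48 (4693 probes). Well above background on all 6 arrays were 263 of the former and 2108 of the latter. Spot number and detection thus go together here, and the part of each in the spread was not tested. Within an array the spots of a 10-spot member differed by a median SD of 0.152, about 11.1% of linear signal, and 37 of 1380 member spots had an outlier mark. In 16 of 23 such probes the SD between arrays was above that between spots. The largest SDs belonged to Rps21, Rps18 (1-spot) and Rps20. The smallest was that of a 1-spot probe of Rps29, a zinc-binding head protein, with 2.47, 2.41 and 2.50 untreated and 2.45, 2.48 and 2.46 with C5a (difference -0.0017, SE 0.24). A second Rps29 probe was the next smallest, with an SD of 0.08.

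**Figure D4:**
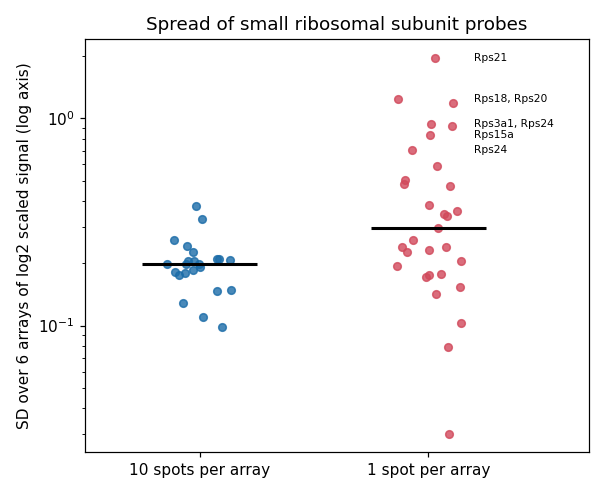
SD over the 6 arrays of the log2 scaled signal (log axis) of each tested small subunit probe, for 23 probes with 10 spots and 31 with 1 spot per array, with the group median as a bar (0.20 and 0.29). The 7 labelled points are the probes of highest SD, led by Rps21 at 1.97, and all have 1 spot.

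Several members followed the replicate number more than the treatment. Rps27l, the p53-induced paralog of Rps27, read -1.37, -1.88 and -2.35 on untreated 1 to 3 and -1.36, -2.25 and -2.41 on C5a 1 to 3, in the same order by number in both groups. Its second probe, detected on 4 arrays, read -2.44, -3.07 and -3.67 against -2.83, -3.36 and -3.58. Rps4x read -1.24, -0.56 and -0.06 against -1.37, -0.70 and -0.37, in the opposite order to Rps27l. With the replicate number as a block the SE of the Rps27l difference (-0.14) went from 0.40 to 0.22 and that of Rps4x (-0.19) from 0.41 to 0.21. The block lowered the SE of 51 of 54 member probes, and again 0 of them were called. Whether samples of the same number share an origin was not tested. Rps27, the paralog of Rps27l, had differences of 0.04 (SE 0.28) and 0.08 (SE 0.26), and the difference between the paralogs was not tested.

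The remaining small subunit proteins do not carry an Rps symbol. Fau, whose protein is cut from a fusion with a ubiquitin-like domain, read 3.19, 2.78 and 3.23 untreated and 3.07, 2.89 and 3.20 with C5a, a difference of -0.02 (SE 0.27). Rack1, the scaffold on the subunit's head that binds protein kinase C, had 0.45 (SE 0.38) on 1 probe and -0.17 (SE 0.29) on the other, with opposite signs and neither called.

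Assembly factors, the nucleolar and cytoplasmic proteins that process the rRNA and fold the subunit, were listed as the other genes of the pathway. Of 58 listed genes on the array, 28 were detected on no array and 20 could be tested, with 21 probes. By limma 0 of 21 were called, with 15 above 0 and 6 below and a median of 0.17, against 0.03 for all tested probes. The groups did not overlap in 4 of 21 (19.0%), against 5.79% of all. Of these, Utp6 and Trmt112 were higher with C5a and Rrp7a and Wdr46 lower. Only 5 of the 21 probes were well above background on all 6 arrays. Several, among them Trmt112, Emg1, Utp3 and Wdr46, reached that mark on 1 untreated and 2 C5a arrays. Their entry leaned on the C5a group, so these counts cannot be read apart from the filter. Utp6, a part of the early processome, read -1.33, -1.34 and -1.81 untreated and -1.04, -0.06 and -0.31 with C5a, a difference of 1.02 (SE 0.34, unadjusted p = 0.0203, adjusted p = 0.9997 by limma). All 3 C5a arrays were above the untreated ones, and C5a 2 and 3, the arrays of the second slide row, were furthest above. Ncl (nucleolin) followed with 0.61 (SE 0.34) and Trmt112, a partner of several methyltransferases, with 0.58 (SE 0.31). On the other side were Rrp7a (-1.76, SE 1.00), Utp3 (-0.89, SE 0.78) and Utp11 (-0.31, SE 0.31). Rrp7a and Utp3 were lowest on C5a 3 at -6.07 and -6.08, and the spot of Utp3 (row 53, column 94) lies in the dim patch, that of Rrp7a (row 57, column 86) just beyond it.

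Of the 21 listed regulators, 9 could be tested and 0 were called, with 5 above 0 and 4 below. Rps6ka3, a kinase downstream of ERK, had the smallest p (difference 0.90, SE 0.41, unadjusted p = 0.0626 by limma) and was detected on 1 array of the untreated group and 2 of the C5a group. Rnf14, a ubiquitin ligase of stalled ribosomes, and G3bp1, a stress granule protein that acts with the deubiquitinase Usp10, gave 0.52 (SE 0.34) and 0.36 (SE 0.32). Rnf14 was detected on 1 untreated and 3 C5a arrays. The entry of Rps6ka3 and Rnf14 leaned on the C5a group, so their differences cannot be read apart from the filter. Below 0 were Rnf10 (-1.26, SE 0.77), which ubiquitinates small subunit proteins, Eif4ebp2 (-0.58, SE 0.54), a repressor of cap binding, and Rps6ka1 (-0.19, SE 0.49). Rnf10 was lowest on C5a 3 at -5.76, and its spot at row 35 and column 75 lies in the dim patch.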

How the data were processed

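Per the file headers, arrays of design 074809 were read with Agilent Feature Extraction 10.10.1.1. The deposited scanner files give each spot's intensity with background subtracted and no scaling between arrays. The deposited series table holds log2 values, of which 99.0% of the differences between arrays lay within 0.01 of those in scanner values once the 75th percentile over all probes was taken off each array. The table's column medians were 0.17, -0.08, 0.18, 0.01, -0.02 and 0.22, and the baseline it subtracts per probe is not known. Accessions were named through RefSeq (GRCm38.p6), while the array design cites another build.

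Outlier-marked spots were dropped, spots of a probe averaged as log2 intensity and arrays scaled on the 75th percentile over probes well above background on all 6 arrays. Probes well above background on at least 3 arrays were tested with limma 3.58.1 (lmFit, eBayes, R 4.3.3), with Benjamini-Hochberg adjustment over all 4958. The fit was tested on simulated data. The deviations of same-numbered samples had correlations of 0.22, 0.27 and 0.38. Samples of different number were not compared, and the labels give no pairing, so whether the numbers pair the samples was not tested. Array brightness also went with the number, as untreated 2 and C5a 2 were brightest and untreated 3 and C5a 3 dimmest. The block was used only as an alternative fit. Named probes were the 5 of smallest p in each direction, the 3 of largest and of smallest SD, genes with several probes, Rpsa and paralogs, and 3 probes in each direction of the other lists. Others singled out were chosen after their values were seen. The members and lists were chosen with earlier results of these data known. Some members are counted with the rest but not reported by name here.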

Additional observations from a re-analysis of the deposited data

How the results depend on the processing

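The count of members called was 0 under every alternative, from scaling and background correction to probe filters, slide row, array weights, subtraction of neighbouring spots and leaving out each sample. The same held for all tested probes, except that without a filter on dim probes 48 of 56605 were called (9 higher, 39 lower), 0 of them members. The replicate block gave 0 calls and a lowest adjusted p of 0.92 by limma, and changed no call. Of the 10 probes named for their p, Rps21 turned to 0.54 with slide row as a covariate and ran from -2.53 to 0.10 when each sample was left out, and Rps3a1 ran from -1.25 to 0.0501. The probe of Rps18 turned to 0.0607 when scaled over all probes and to 0.0633 in the deposited series table, and that of Rps2 to 0.0255 and 0.03 there and to 0.17 with slide row. With slide row, 22 of 54 member signs changed, and 1-spot probes of Rps15a and Rps3a1 went to -2.08 and -2.23. The C5a difference in that fit is that of C5a 1 alone against the untreated arrays, as the second row held C5a samples only. Scaling over all probes moved the difference of every tested probe up by 0.36. Beyond this and the single samples named above, why signs turned was not tested. Scaling over all probes also raised the median SE of members to 0.85, so the bounds given for 10-spot probes hold for the main scaling. The correction named normexp used the median spot signal, as no mean signal was given, and shifted all tested probes by -0.16. Arrays of 3 samples per group and dim signal limit the comparison to bright transcripts.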
